A study of Ovis aries with 6 samples.

Results

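Skin transcriptomes of sheep from the breeds Super Merino (SM) and, as the coarse wool breed, Small Tail Han (STH) were compared for the genes of the mitochondrial respiratory chain, counting ATP synthase with it. Members were chosen by name alone: nuclear genes whose names start with NDUFA, NDUFB, NDUFC, NDUFS or NDUFV and a digit, SDHA to SDHD, or names starting with UQCR, COX4 to COX8 or ATP5, together with the 13 protein genes of the mitochondrial genome. This gave 60 nuclear and 13 mitochondrial genes, 73 of the 28394 genes in the files. The nuclear members were 38 genes with complex I names, 4 of complex II, 1 of complex III (UQCRH), 1 of complex IV (COX5A), 14 of complex V, and 2 (ATP5S and ATP5SL) that carry an ATP5 name but are not subunits of the enzyme. Other COX and UQCR genes were not analysed here, so that by name complexes III and IV were represented by a single nuclear gene each.

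The samples were 3 SM and 3 STH ewes, with 1 library of polyA RNA from the skin behind the shoulder blade of each. SM sheep are bred for fine wool. Neither group had a treatment, and per the study's methods all ewes shared a farm and feed. The labels give an age of 9 months for every sheep, whereas the methods give a younger age. The sheep are called by their labels, 128, 30034 and 30126 in SM and XW3, XW5 and XW8 in STH, and per-sheep values follow that order throughout. Whole skin is a mixture of epidermis, follicles, glands and dermis, and each breed is represented by a single skin site of 3 animals.

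The respiratory chain passes electrons from NADH through complex I and from succinate through complex II to ubiquinone, then through complex III and cytochrome c to complex IV, which reduces oxygen. Complexes I, III and IV pump protons across the inner mitochondrial membrane, and complex V, ATP synthase, lets them return to make ATP. Complexes I, III, IV and V are built from products of both genomes, the core membrane subunits being made inside the organelle, while complex II is wholly nuclear. In skin the follicle matrix and sebaceous glands are among the metabolically active compartments.

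Total counts ranged from 28870583 to 44645091 per sheep, at which 3 counts correspond to 0.0672 to 0.104 CPM (counts normalised to library size). The 13 mitochondrial genes had a count of 0 in every sheep but had RPKM values (reads normalised to exon length and library size), and the reads behind those values came out as whole numbers, 1116032 to 2532084 per sheep. Levels are given below as TMM-scaled RPKM, the deposited RPKM multiplied by a factor per sheep (between 0.967 and 1.03) that puts it on the same library scale as the normalised counts, so that genes of both genomes can be set side by side per length. Fold changes are log2 values of SM over STH throughout, with the standard error after the ± sign and 3 sheep per breed, and adjusted p values are from edgeR's quasi-likelihood test for nuclear and from limma for mitochondrial genes. Keratins of the epidermis and the follicle were abundant in all 6 sheep, with KRT5, a basal keratinocyte keratin, at 1452, 1829 and 1730.0 TMM-scaled RPKM in SM sheep and 1727, 2186 and 2617 in STH sheep.

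The nuclear and mitochondrial genes pointed in opposite directions between the breeds, without any single gene passing the test. Of the 60 nuclear genes 54 were at a higher level in SM sheep and their log2 fold changes had a median of 0.30, whereas all 13 mitochondrial genes had a higher level in STH sheep, with a median of -0.87. Fitted together with the mitochondrial genes on the RPKM scale, the nuclear genes had a median of 0.28, again with 54 higher in SM sheep. In these bulk samples, fewer cells of a type and less RNA per cell cannot be told apart.

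**Figure D1:**
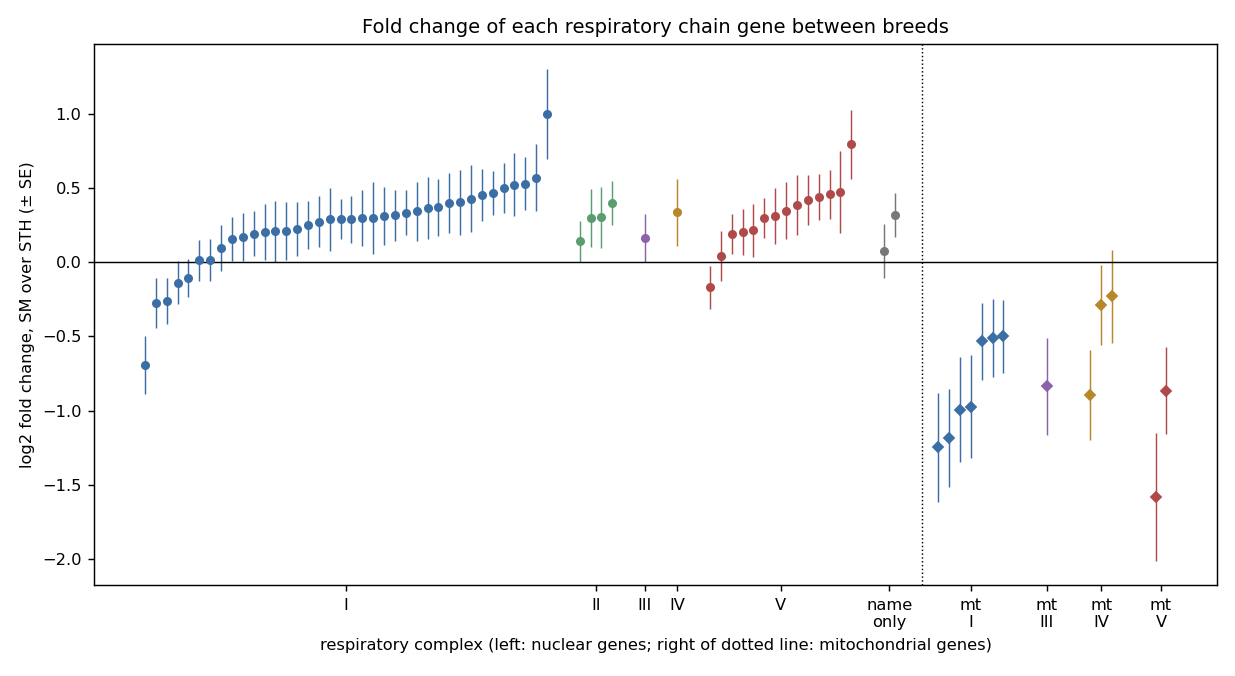
Log2 fold change of SM over STH sheep (vertical axis) with its standard error for each of the 60 nuclear genes (circles, left) and the 13 mitochondrial genes (diamonds, right of the dotted line), grouped by respiratory complex on the horizontal axis. Of the nuclear genes 54 lie above 0 and 6 below, and the mitochondrial genes all lie below 0.

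In the nuclear set, 0 of 60 genes passed an adjusted p of 0.05 with more than 1.5-fold change (edgeR's quasi-likelihood test with Benjamini-Hochberg adjustment), against 0% of the 15320 genes tested. The adjusted p of the members lay between 0.240 and 0.965. At an unadjusted p under 0.05, 12 of the 60 pointed to SM sheep and 1 pointed to STH sheep, beside 7.21% and 10.8% of all genes tested. The likelihood ratio test of edgeR and DESeq2 also called 0 of the 60, while calling 352 and 443 genes in the whole table. Without SM sheep 128, 4 nuclear genes passed (ATP5G1, ATP5J2, NDUFA2 and NDUFB8) among 1175 genes of the whole table. Calls were common over all genes in that fit, and the 4 are not read as a result about the members.

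The direction was shared by most members and by every complex. A level higher in SM sheep was found for 54 of 60 members (51.4% of all genes tested) and one higher in STH sheep for 6 (48.6%), and the median log2 fold change of all genes tested was 0.02. In 18 members the 3 SM sheep all lay above the 3 STH sheep (12.3% of all genes), in 2 all lay below (13.3%), and in the other 40 the breeds overlapped. The medians were 0.29 for complex I, 0.30 for complex II and 0.33 for complex V, while UQCRH of complex III had a fold change of 0.16 and COX5A of complex IV one of 0.34, and none of these was tested as a group.

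Sheep 30126 stood highest in most nuclear genes. It had the highest level of the 6 sheep in 47 of the 60 genes, and its genes lay a median of 0.41 log2 units above their means. The lowest level was in XW5 for 25 genes, in XW8 for 21 and in SM sheep 128 for 9. Without 30126 the median log2 fold change was 0.14 with 52 genes higher in SM sheep, and without 128 it was 0.42 with 53. Per the paper's mapping statistics, 30126 also had the fewest uniquely mapped fragments in introns of the 6 sheep, though not the fewest in all. Whether the intron shares bear on the levels was not tested.

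**Figure D2:**
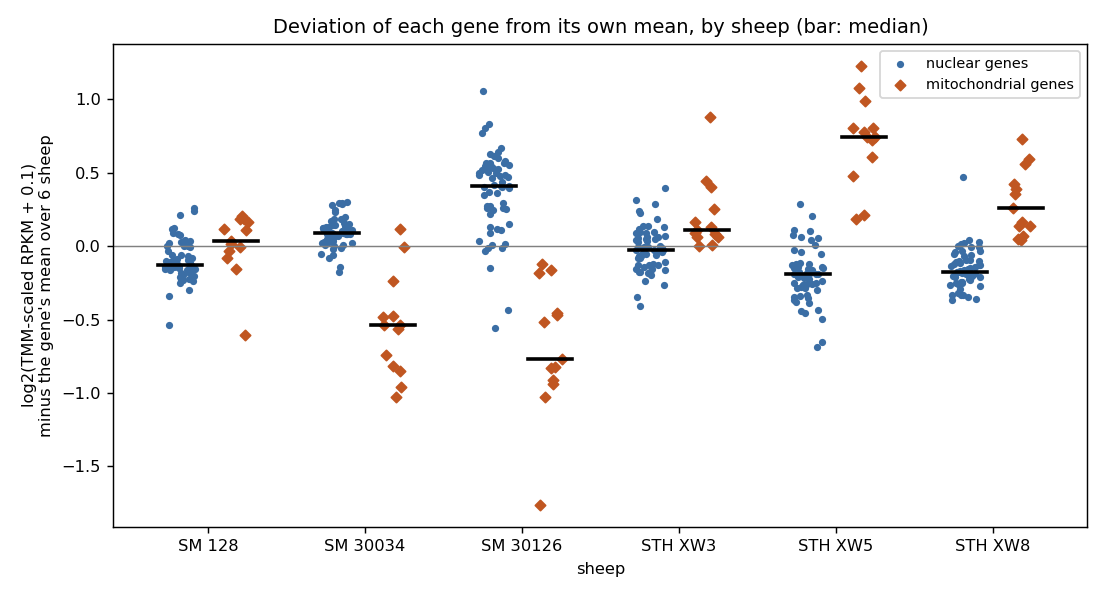
Deviation of each gene from its own mean over the 6 sheep (vertical axis, log2 units) by sheep (horizontal axis), for nuclear genes (circles) and mitochondrial genes (diamonds), with bars at the medians. Sheep 30126 has the highest nuclear median, 0.41, and the lowest mitochondrial median, -0.77, and XW5 has the lowest nuclear median, -0.19, and the highest mitochondrial one, 0.74.

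Complex I takes electrons from NADH, and its nuclear members ranged from -0.69 to 1.00 in log2 fold change. NDUFB1, an accessory subunit of the membrane arm, had 13.8, 12.5 and 24.4 TMM-scaled RPKM in SM sheep and 8.78, 7.40 and 9.27 in STH sheep. Its SM levels all lay above its STH levels, with 30126 far above the other SM sheep, and the log2 fold change was 1.00 ± 0.30 (adjusted p = 0.247). At 300 bases it has the shortest exon length of the 60 nuclear members. NDUFA10, an accessory subunit of the matrix side, had 39.6, 38.6 and 50.4 in SM sheep and 31.7, 30.3 and 31.2 in STH sheep. The STH sheep lay close together and below every SM sheep, with a log2 fold change of 0.46 ± 0.15 (adjusted p = 0.247).

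The other 5 complex I genes that pointed to SM sheep with an unadjusted p under 0.05, named after their values were seen, were higher in every SM sheep than in any STH sheep. They were NDUFB8, an accessory subunit of the membrane arm (0.53 ± 0.18, adjusted p = 0.247), NDUFS7, a core subunit holding an iron-sulfur cluster (0.50 ± 0.17, adjusted p = 0.248), and NDUFV1, the core subunit that binds FMN and NADH (0.57 ± 0.22, adjusted p = 0.260). NDUFA2 (0.45 ± 0.17, adjusted p = 0.260) and NDUFA13 (0.52 ± 0.21, adjusted p = 0.262) are accessory subunits. NDUFS8, a core subunit, and NDUFC2, an accessory one, also had every SM sheep above every STH sheep, with fold changes of 0.33 and 0.29 at an unadjusted p over 0.05. The 21 complex I genes that overlapped between breeds and are not named with a value had fold changes from 0.01 to 0.43, all towards SM sheep. By family, the share higher in SM sheep was 12 of 14 for NDUFA, 10 of 11 for NDUFB, 2 of 2 for NDUFC, 7 of 8 for NDUFS and 2 of 3 for NDUFV genes.

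NDUFA4L2 went the other way and had the smallest p of all 60. It is a paralog of NDUFA4 known as a hypoxia-inducible gene. NDUFA4 itself was long counted with complex I but is now placed in complex IV, and both are grouped here by name. Levels of NDUFA4L2 were 15.6, 23.1 and 15.4 TMM-scaled RPKM in SM sheep and 30.0, 26.2 and 31.5 in STH sheep, with every STH sheep above every SM sheep. The log2 fold change was -0.69 ± 0.19 (adjusted p = 0.240). NDUFA4, the complex I name with the highest level, was at 198, 234 and 268 in SM and 221, 203 and 232 in STH sheep, with the breeds overlapping and a log2 fold change of 0.10 ± 0.15 (adjusted p = 0.730), which changed sign without sheep 30126 and with the trend on exon length removed. NDUFA4L2 thus made up 7.32%, 8.99% and 5.44% of the summed level of the pair in SM sheep and 11.9%, 11.4% and 12% in STH sheep, and the SM shares were all below the STH shares.

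The remaining members with a higher STH level, also named after their values were seen, were few and small in difference. Their exon lengths were 4718 bases for NDUFS1, 3027 for NDUFV2, 2595 for NDUFB2, 1356 for NDUFA5 and 908 for ATP5J. The median of the nuclear members was 845.5. NDUFA5, an accessory subunit, was at 9.43, 10.3 and 9.59 in SM sheep and 13.3, 11 and 10.8 in STH sheep, and the breeds did not overlap (-0.26 ± 0.15, adjusted p = 0.359). NDUFS1, the largest core subunit with iron-sulfur clusters, had a fold change of -0.27 ± 0.17 (adjusted p = 0.373), and NDUFV2, a core subunit next to NDUFV1, one of -0.14 ± 0.15 (adjusted p = 0.594). NDUFB2 of the membrane arm (-0.11 ± 0.13, adjusted p = 0.636) and ATP5J, a subunit of the peripheral stalk of complex V (-0.17 ± 0.15, adjusted p = 0.508), overlapped between breeds, as did NDUFS1 and NDUFV2. NDUFA6, an accessory subunit, had the highest level among the complex I names after NDUFA4. It was at 132, 147 and 169 in SM sheep and 154, 128 and 117 in STH sheep, overlapping. Its fold change of 0.17 ± 0.16 (adjusted p = 0.553) changed sign with the length trend removed.

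Complex II, which is also an enzyme of the tricarboxylic acid cycle, had all 4 genes higher in SM sheep on average. SDHA, the flavoprotein that oxidises succinate, was at 28.9, 31 and 37.4 TMM-scaled RPKM in SM sheep and 24.8, 22.9 and 26.2 in STH sheep. All SM sheep were above all STH sheep, with a log2 fold change of 0.40 ± 0.15 (adjusted p = 0.255). SDHB, the iron-sulfur subunit, was at 18.6, 21.4 and 32 in SM and 20.9, 17.6 and 20.0 in STH sheep. In SDHB the breeds overlapped and only 30126 stood clear of the others (0.30 ± 0.21, adjusted p = 0.418). SDHC, a membrane anchor, was at 50.3, 57.1 and 84.2 in SM sheep and 50.5, 52.5 and 53.2 in STH sheep. SDHD, the other anchor, was at 42.4, 38.4 and 42.3 in SM and 33, 40.5 and 38.1 in STH sheep. Both overlapped between breeds, with fold changes of 0.30 ± 0.20 (adjusted p = 0.403) for SDHC and 0.14 ± 0.14 (adjusted p = 0.558) for SDHD.

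The single nuclear genes with complex III and complex IV names overlapped between breeds. UQCRH, the hinge protein of complex III, was at 193, 218 and 256 TMM-scaled RPKM in SM sheep and 215, 209.5 and 170.5 in STH sheep. The log2 fold change of UQCRH was 0.16 ± 0.16 (adjusted p = 0.562) and changed sign with the length trend removed. COX5A, a subunit on the matrix side of complex IV, was at 27.7, 35.3 and 50.0 in SM and 32.3, 25.3 and 32.2 in STH sheep. Sheep 30126 was highest and XW5 lowest, and the fold change was 0.34 ± 0.23 (adjusted p = 0.407).

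In complex V 13 of 14 genes were higher in SM sheep. The c subunits of the membrane rotor are encoded by the paralogs ATP5G1, ATP5G2 and ATP5G3, which differ in their import sequences and give the same mature protein. ATP5G1 was at 27.2, 30.5 and 45.9 TMM-scaled RPKM in SM sheep and 20.2, 16 and 23.6 in STH sheep. Every SM sheep was above every STH sheep, and the log2 fold change of 0.79 ± 0.23 (adjusted p = 0.247) was the largest of complex V. ATP5G2 was at 234, 253 and 322 in SM sheep and 206, 199 and 191 in STH sheep, again without overlap (0.44 ± 0.16, adjusted p = 0.254). ATP5G3 was at 76.7, 87.4 and 118 in SM and 84.7, 65.6 and 71.9 in STH sheep and overlapped (0.35 ± 0.19, adjusted p = 0.333).

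ATP5G1 was the least abundant of the 3 paralogs in every sheep. It made up 8.05%, 8.24% and 9.44% of their summed level in SM sheep and 6.51%, 5.68% and 8.23% in STH sheep, so that the shares of 30034 and XW8 were nearly equal. Reads in stretches that the paralogs share could have been divided among them in mapping, which leaves the split between them uncertain.

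ATP5J2, a subunit of the membrane part, was at 197, 253 and 279 in SM sheep and 188, 181 and 162 in STH sheep. The breeds did not overlap, with 128 only just above XW3 (0.46 ± 0.16, adjusted p = 0.254). ATP5F1, a subunit of the peripheral stalk named after its values were seen, had a fold change of 0.42 ± 0.17 (adjusted p = 0.261), also without overlap. ATP5B, the catalytic beta subunit and the nuclear member with the highest mean level, was at 211, 249 and 331 in SM and 229, 196 and 214 in STH sheep. The breeds overlapped in ATP5B, since 128 was below XW3 and XW8, and the fold change was 0.31 ± 0.19 (adjusted p = 0.374). ATP5L, a membrane subunit, and ATP5C1, the gamma subunit of the central stalk, did not overlap between breeds either, with fold changes of 0.30 and 0.19. ATP5A1 (catalytic head), ATP5D (central stalk), ATP5H and ATP5O (peripheral stalk) and ATP5I (membrane part) overlapped, with fold changes from 0.04 to 0.47. ATP5S and ATP5SL, the 2 members that are not subunits, were both higher in SM sheep on average.

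**Figure D3:**
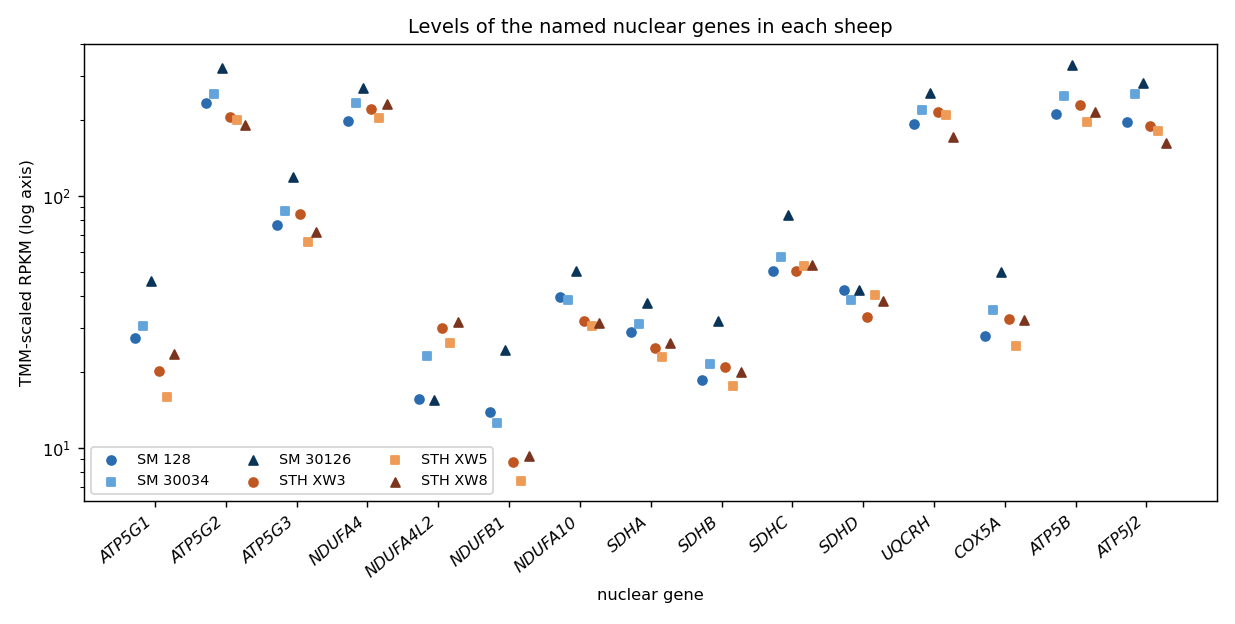
TMM-scaled RPKM (vertical log axis) of 15 of the nuclear genes named by the rule, all but NDUFA6 (horizontal axis), in each of the 6 sheep, with SM sheep in blue and STH sheep in orange and brown. NDUFA4L2 is the gene with the STH sheep on top, and in most of the others sheep 30126 is the highest point.

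Nuclear members are short genes, and short genes as a class were higher in SM sheep. The median exon length of the members was 845.5 bases against 3068.5 for all genes tested. Of all tested genes under 1000 bases, 880 of 1187 were higher in SM sheep and the median fold change on the log2 scale was 0.24, and of the members under 1000 bases 35 of 37 were, with a median of 0.30. Among genes of 1000 bases or more the medians were -0.01 for all and 0.30 for the 23 members. Of these members 19 were higher in SM sheep, and only NDUFS1 (4718 bases) and SDHB (3368) exceeded the 3068.5 median length of all genes tested. The members and all genes in this class were thus not matched in length. With each sheep's trend on exon length removed, the median of the 60 members was 0.15, beside 0.08 for all genes, and 47 were higher in SM sheep.

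The mitochondrial genes encode 7 subunits of complex I, cytochrome b of complex III, 3 subunits of complex IV and 2 of complex V, and they lie between bases 2745 and 15298 of the mitochondrial record of Oar_v4.0. They were tested with limma on log2(TMM-scaled RPKM + 0.1), a scale on which changes of low genes come out too small. Of the 13 genes, 0 passed an adjusted p of 0.05, beside 6 of 16220 genes or 0.037%, and the adjusted p of the members lay between 0.226 and 0.684. All 13 were higher in STH sheep (49.2% of all genes) and 0 in SM sheep (50.8%), and 8 of them had an unadjusted p under 0.05 (11.4% of all genes in that direction and 7.12% in the other). In 0 genes was every SM sheep above every STH sheep (12% of all genes), and in 7 genes, ND1, ND2, ATP8, ATP6, COX3, ND5 and ND6, every STH sheep was above every SM sheep (13.1% of all genes).

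On the recovered reads of the same genes, an alternative added after seeing the data, edgeR's quasi-likelihood test called 0 of the 13. It called 2 genes in the whole table. Its p before adjustment was below 0.05 for 10 of the mitochondrial genes, a count for which no share of all genes is given here. The likelihood ratio test called 2 (ND1 and ND2) and DESeq2 called 3 (ATP6, ND1 and ND2), among 300 and 431 genes called in the whole table. How many genes these fits tested is not given here, so the calls cannot be set beside a share of all genes. Without SM sheep 128, limma called 5 (COX2, ND1, ND2, ND4 and ND4L) among 722 genes of the whole table. The number of genes tested in that fit is not given here either, and the 5 are not read as a result about the members. The median in that fit was -1.10. In every sheep left out in turn the 13 genes all stayed higher in STH sheep, with medians from -1.10 to -0.68.

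Among the subunits of the proton-pumping arm of complex I, ND2 and ND1 differed most. ND2 was at 2089.6, 994 and 945 TMM-scaled RPKM in SM sheep and 2619.9, 4065 and 2464 in STH sheep. Its lowest STH sheep, XW8, was above its highest SM sheep, 128, and the log2 fold change was -1.25 ± 0.37 (adjusted p = 0.229). ND1 was at 703, 385 and 363 in SM and 725, 1381 and 1153 in STH sheep. Sheep 128 and XW3 nearly met in ND1, and 30034 and 30126 lay well below both (-1.18 ± 0.33, adjusted p = 0.226).

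ND4 and ND4L are neighbours that share 7 bases, and the 6 sheep fell in the same order in both. ND4 was at 3139.9, 1675 and 1492 in SM sheep and 3068, 4889.9 and 4124 in STH sheep, and ND4L at 1981, 989.8 and 983 in SM and 1816, 3049 and 2626 in STH sheep. In both, 128 was above XW3 while the other sheep were parted by breed, and the fold changes were -0.99 ± 0.35 (adjusted p = 0.237) for ND4 and -0.97 ± 0.35 (adjusted p = 0.237) for ND4L. ND3 was at 1671, 1054 and 1065 in SM and 1751, 2052 and 1512 in STH sheep, overlapping because 128 was above XW8, with a fold change of -0.51 ± 0.26 (adjusted p = 0.315).

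ND5 and ND6 lie on opposite strands and share 17 bases, and whether the reads were counted by strand is not given in the sources used here. ND5 was at 1010.2, 738 and 942 in SM sheep and 1072, 1763 and 1122 in STH sheep, and ND6 at 1301, 1042 and 1332 in SM and 1448, 2203 and 1593 in STH sheep. In both the breeds did not overlap and XW5 was far above the other sheep. The fold changes were -0.53 ± 0.26 (adjusted p = 0.300) for ND5 and -0.50 ± 0.25 (adjusted p = 0.302) for ND6.

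CYTB, the only mitochondrial subunit of complex III, was at 2941, 1877 and 1543 TMM-scaled RPKM in SM sheep and 2903, 4563 and 3652 in STH sheep. Sheep 128 was just above XW3, so that the breeds overlapped, and the fold change was -0.84 ± 0.33 (adjusted p = 0.244). UQCRH of the same complex pointed the other way, at 0.16.

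COX1 and COX3, core subunits of complex IV and the most abundant of all 73 genes, differed least of the 13 mitochondrial genes. COX1, which carries the site of oxygen reduction, was at 6529, 7099 and 4779 TMM-scaled RPKM in SM sheep and 7069.9, 7464 and 6784 in STH sheep. Only 30126 stood apart, and the log2 fold change was -0.23 ± 0.32 (adjusted p = 0.684). COX3 was at 4544, 3947 and 4166 in SM and 4921, 5379 and 5125 in STH sheep, with all SM sheep below all STH sheep by a small margin (-0.29 ± 0.27, adjusted p = 0.547). COX2, which accepts electrons from cytochrome c, was far less abundant at 82.7, 35.3 and 50.1 in SM and 94.9, 123 and 80.5 in STH sheep. Its breeds overlapped, with 128 above XW8, and its fold change was -0.89 ± 0.30 (adjusted p = 0.236).

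ATP6 and ATP8 of complex V overlap by 40 bases but were listed at very different levels. ATP6, which forms the proton channel with the rotor of c subunits, was at 2090.2, 1380.3 and 1198 TMM-scaled RPKM in SM sheep and 2291, 3412 and 2672 in STH sheep. Every STH sheep was above every SM sheep, with a fold change of -0.86 ± 0.29 (adjusted p = 0.236). ATP8, a small membrane subunit of 201 bases, was at 3.65, 5.58 and 1.58 in SM and 10.4, 13.3 and 6.75 in STH sheep, resting on 32, 73 and 18 reads in SM sheep and 93, 162 and 59 in STH sheep. The breeds did not overlap in level, and its fold change of -1.58 ± 0.43 (adjusted p = 0.226) was the largest in size of the 13 genes and the one with the widest error. How reads in bases shared by neighbouring genes, or matching nuclear copies of mitochondrial DNA, were assigned is not given in the sources used here.

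**Figure D4:**
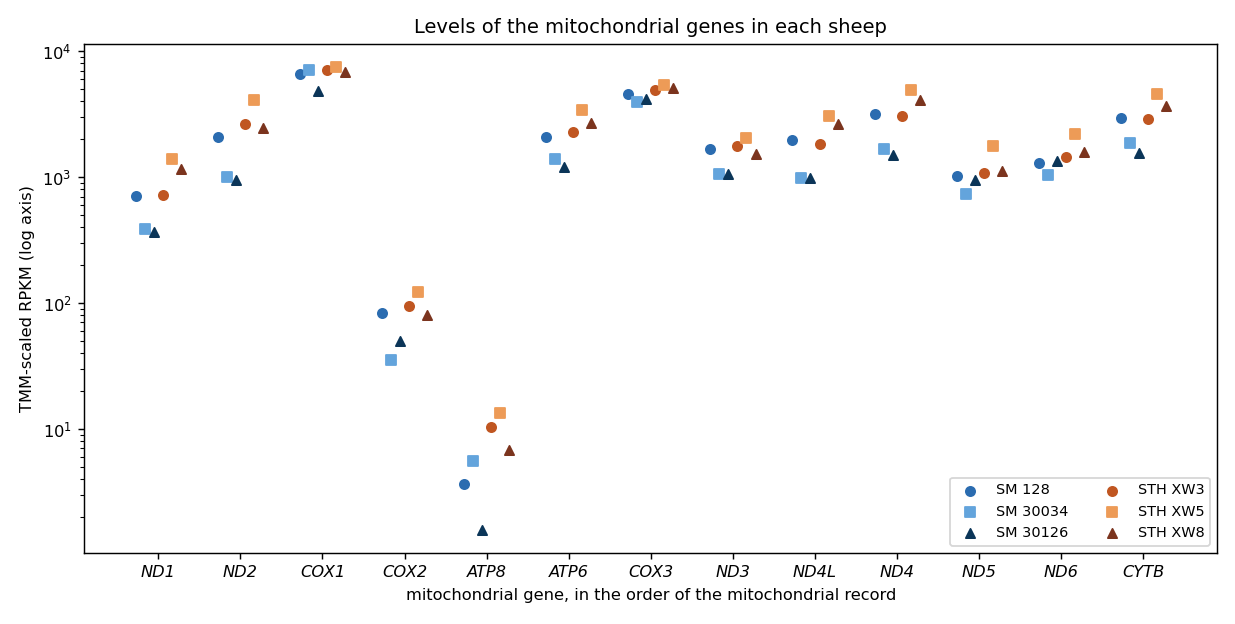
TMM-scaled RPKM (vertical log axis) of the 13 mitochondrial genes, in the order of the mitochondrial record (horizontal axis), in each of the 6 sheep, with SM sheep in blue and STH sheep in orange and brown. XW5 is the highest point in all 13 genes, the lowest is 30126 in 8 and 30034 in 5, and COX2 and ATP8 lie far below the others.

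XW5 had the highest level of all 13 genes, and the lowest level was in 30126 for 8 genes and in 30034 for 5. Sheep 128 was nearer to XW3 and XW8 than to the other SM sheep, with its genes at a median of 0.03 log2 units from their means against -0.54 in 30034 and -0.77 in 30126. The medians in XW3, XW5 and XW8 were 0.11, 0.74 and 0.26.

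The makeup of the mitochondrial reads differed between sheep as well. Of the pair and the group of 5 genes that follow, both put together after the values were seen, COX1 and COX3 took 46.5%, 60.02% and 54.0% of the reads of the 13 genes in SM sheep and 47.3%, 37.8% and 42.6% in STH sheep. ND1, ND2, ND4L, ND4 and CYTB took 37.9%, 26.2% and 27.6% in SM sheep and 36.8%, 44.2% and 42.0% in STH sheep. In both shares 128 and XW3 were nearly equal, and the other sheep were parted by breed. The 13 genes made up 2.90%, 2.42% and 2.02% of the reads behind the RPKM values in SM sheep and 3.15%, 4.04% and 3.33% in STH sheep, without overlap.

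Set side by side, the summed level of the 60 nuclear genes was 4071, 4743 and 5763 TMM-scaled RPKM in SM sheep and 4369.5, 3852 and 3866 in STH sheep. The summed level of the 13 mitochondrial genes was 28087, 21222 and 18861 in SM sheep and 29791, 40358 and 32914 in STH sheep. The mitochondrial sums did not overlap between breeds, whereas the nuclear sums did, XW3 being above 128. The log2 ratio of the mitochondrial to the nuclear sum, which does not depend on library scaling, was 2.79, 2.16 and 1.71 in SM sheep and 2.77, 3.39 and 3.09 in STH sheep. Its mean was 2.22 ± 0.54 (SD, n = 3) in the SM breed against 3.08 ± 0.31 (SD, n = 3) for the STH breed, a difference of -0.86, and 128 was just above XW3. The difference lay between -1.15 and -0.61 when each sheep was left out in turn.

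**Figure D5:**
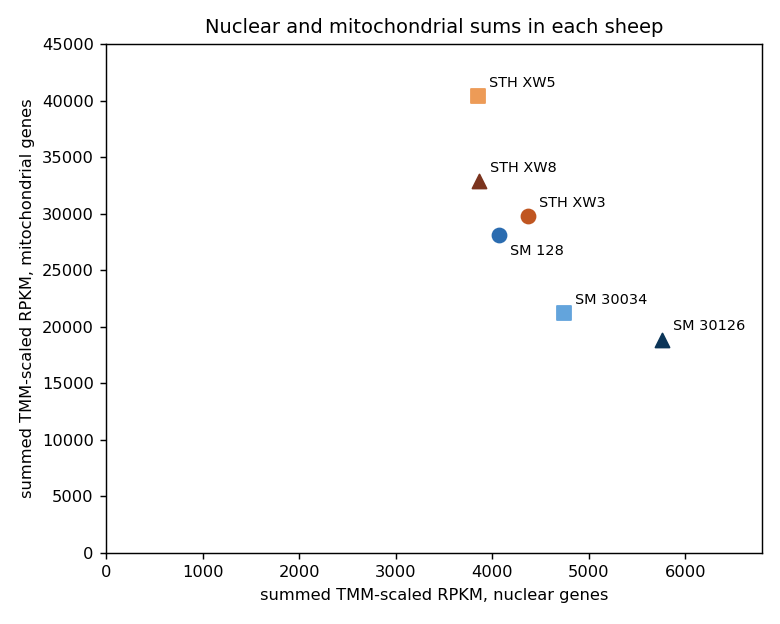
Summed TMM-scaled RPKM of the 13 mitochondrial genes (vertical axis) against that of the 60 nuclear genes (horizontal axis), 1 point per sheep. Sheep 30126 has the highest nuclear sum, 5763, and the lowest mitochondrial sum, 18861, XW5 has the lowest nuclear and the highest mitochondrial sum, 3852 and 40358, and 128 lies beside XW3.

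Within each complex that draws on both genomes the mean ratio of mitochondrial to nuclear sums was higher in STH sheep, with overlap in complexes I, III and IV. For complex I the mitochondrial sum was 6.22, 3.06 and 2.59 times the nuclear sum in SM sheep and 6.06, 10.6 and 7.76 times in STH sheep. For complex V the ratio was 1.18, 0.667 and 0.482 in SM sheep and 1.20, 2.08 and 1.64 in STH sheep. In complex I 128 was above XW3 and in complex V just below it, and the other sheep were parted by breed. For complex III, with 1 gene of each genome, the ratio was 15.3, 8.60 and 6.02 in SM sheep and 13.5, 21.8 and 21.4 in STH sheep, and 128 was again above XW3. The ratio for complex IV rested on COX5A as its single nuclear gene by name. It was 403, 314 and 179.7 in SM sheep and 374, 513 and 373 in STH sheep, so that 128 was above both XW3 and XW8. NDUFA4, far more abundant than COX5A, was counted in complex I, so the ratios of both complexes depend on that grouping. The ratio of levels between genomes compares sums over different numbers of genes and was not tested.

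Markers of other skin cell types also differed between the breeds, and their part in these differences was not tested. All 6 sebocyte markers (AWAT1, AWAT2, DGAT2L6, ELOVL3, FA2H and MC5R) were higher in SM sheep, with summed levels of 342 to 614 TMM-scaled RPKM in SM and 184 to 250.1 in STH sheep, the highest being in 30126. All 6 keratinocyte markers found in the files, of 8 listed, were higher in STH sheep (4916 to 6111 in SM and 5778 to 8988 in STH sheep), as were all 6 smooth muscle markers (373 to 463 and 524 to 695). Of the latter, TAGLN was nearly equal, with overlapping breeds and means of 181.7 in SM and 182.9 in STH sheep. The adipocyte markers summed to 48.5 to 109 in SM and 225 to 294 in STH sheep, almost wholly from FABP4, with LEP and PLIN1 at or near 0 and ADIPOQ between 0.0404 in 128 and 1.77 in XW8. Fibroblast (2446 to 3409 and 2875 to 3546) and leukocyte markers (281 to 530.0 and 275 to 379) overlapped, and endothelial markers (52.2 to 69.0 and 30.7 to 53.7) nearly parted the breeds with SM higher. Skeletal muscle markers, of which 6 of 9 were found, summed to 12.6 to 21.0 in SM and 17.6 to 20.5 in STH sheep, mostly from CKM (9.99 to 15.2 over the 6 sheep) and TNNT1 (2.22 to 5.95). Of the others found, MYH7, MB and MYLPF were at or near 0, and ACTA1 was at 0.252, 0.517 and 0.80 in SM sheep and 3.93, 2.33 and 0.906 in STH sheep, without overlap.

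Genes that build and feed the chain were taken from lists fixed by name, and 0 genes of any list passed edgeR's quasi-likelihood test. The paper's own edgeR analysis, with the same thresholds, did list ACAD9, ECI2 and SLC25A20 of these lists as more highly expressed in SM sheep. The likelihood ratio test and DESeq2 called 1 assembly factor each and 2 and 4 genes of fatty acid oxidation, and 0 in the other lists. Over all 15320 genes these tests called 352 and 443. The fit without 128, whose calls are given below by list, called 1175 genes of the whole table. How many genes that fit tested is not given here, so its calls are not read as results about the lists. The list counts that follow stand beside shares of all genes tested of 51.4% with the higher level in SM sheep and 48.6% with it in STH sheep, and beside 7.21% towards SM and 10.8% towards STH sheep at an unadjusted p under 0.05. Of 27 assembly factors tested 17 were higher in SM sheep, 2 of them and none in the other direction at an unadjusted p under 0.05, and the median fold change was 0.14 on the log2 scale. ACAD9, a complex I assembly factor related to acyl-CoA dehydrogenases, was at 58.5, 42.5 and 60.5 TMM-scaled RPKM in SM sheep and 28, 34.7 and 31.4 in STH sheep. The breeds did not overlap (0.78 ± 0.17, adjusted p = 0.200), and the likelihood ratio test, DESeq2 and the fit without 128 called it. TMEM126B, another complex I assembly factor, pointed to STH sheep with overlap (-0.41 ± 0.27, adjusted p = 0.393).

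Of 31 genes that maintain and express the mitochondrial genome, 8 were higher in SM and 23 in STH sheep (48.6% of all genes tested), with a median of -0.13. At an unadjusted p under 0.05 there were 2 and 6 (7.21% and 10.8% of all genes). Without 128 FASTKD1, PNPT1 and TRMT10C, all higher in STH sheep, passed among 1175 genes of the whole table. FASTKD1, which acts on mitochondrial RNA, was at 3.01, 2.27 and 1.49 in SM sheep and 3.82, 4.54 and 3.65 in STH sheep without overlap (-0.83 ± 0.25, adjusted p = 0.247), and HSD17B10, a subunit of mitochondrial RNase P, had a fold change of 0.48 ± 0.20 (adjusted p = 0.270). Of 11 translation factors 5 were higher in SM sheep with 0 in that direction and 2 in the other at an unadjusted p under 0.05 and a median of -0.16. The genes with the smallest p in each direction were TUFM, the elongation factor, at 0.45 ± 0.25 (adjusted p = 0.335), and MTFMT, which formylates the initiator tRNA, at -0.61 ± 0.23 (adjusted p = 0.255).

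Mitochondrial ribosomal proteins, by contrast, pointed to SM sheep in 55 of 73 genes (51.4% of all genes tested), with a median of 0.19. Neither this median nor those of the other lists was adjusted for exon length, and short genes as a class were higher in SM sheep. Whether length bears on the contrast between lists was not tested. In each direction 3 genes had an unadjusted p under 0.05, a share below that of all genes in both (7.21% and 10.8%). The genes with the smallest p in each direction were MRPL2 (0.48 ± 0.17, adjusted p = 0.254) and MRPL1 (-0.65 ± 0.20, adjusted p = 0.247), both of the large subunit, and MRPL1 passed without 128. Of 12 transcriptional regulators of nuclear respiratory genes 4 were higher in SM sheep, with 0 in that direction and 2 in the other at an unadjusted p under 0.05 and a median of -0.09, and GABPA and PPARGC1A, both higher in STH sheep, passed without 128. PPARGC1A, a coactivator of mitochondrial biogenesis, was at a very low level of 0.149, 0.0710 and 0.0527 in SM sheep and 0.205, 0.256 and 0.164 in STH sheep. Its breeds did not overlap (-1.21 ± 0.41, adjusted p = 0.247), and its relative PPARGC1B was at 0.33 ± 0.16 (adjusted p = 0.298).

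Mitochondrial fatty acid oxidation had the largest median of the lists, 0.42, with 12 of 15 genes higher in SM sheep, 8 of them and none in the other direction at an unadjusted p under 0.05, beside 51.4% of all genes higher in SM sheep and 7.21% and 10.8% under that p. ECI2, an isomerase for unsaturated fatty acids, was at 93.7, 90.8 and 129 TMM-scaled RPKM in SM sheep and 48.9, 56.1 and 62.8 in STH sheep. No STH sheep reached the SM levels (0.90 ± 0.18, adjusted p = 0.185), and the likelihood ratio test, DESeq2 and the fit without 128 called the gene. Without 128, 6 genes of the list passed, 5 of them higher in SM sheep and ACADL higher in STH sheep. In all 6 sheep ACADL, a dehydrogenase for long-chain acyl-CoA, pointed to STH sheep with overlap (-0.58 ± 0.29, adjusted p = 0.308).

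The tricarboxylic acid cycle list, with pyruvate dehydrogenase, had 13 of 18 genes higher in SM sheep and a median of 0.13, with 3 genes towards SM and 1 towards STH sheep at an unadjusted p under 0.05. IDH3G, a subunit of isocitrate dehydrogenase, was at 0.49 ± 0.17 (adjusted p = 0.248) and SUCLA2, a subunit of succinyl-CoA ligase, at -0.49 ± 0.18 (adjusted p = 0.255). Electron carriers and feeders had 11 of 16 higher in SM sheep, 1 of them at an unadjusted p under 0.05, and a median of 0.12, with COQ4 of ubiquinone synthesis at 0.57 ± 0.24 (adjusted p = 0.269) and GPD2, the mitochondrial glycerol phosphate dehydrogenase, at -0.51 ± 0.23 (adjusted p = 0.283). Glycolysis had 12 of 15 genes higher in SM sheep, 1 of them at an unadjusted p under 0.05, and a median of 0.19, with PFKM, a phosphofructokinase, at 0.45 ± 0.17 (adjusted p = 0.256) and LDHA, a lactate dehydrogenase, at -0.31 ± 0.15 (adjusted p = 0.302).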

How the data were processed

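PolyA RNA from the skin of 6 ewes, 3 per breed, was sequenced with 1 paired-end library for each animal. Per the paper's methods the authors checked the reads with FastQC and mapped them to Oar_v4.0 with CLC Genomics Workbench 9.0.1. The deposited total count is the unnormalised number of reads assigned to a gene, and the deposited RPKM follows exon length and reads mapped, also for genes whose count is 0. The authors also deposited TPM values and a score called CPM, neither of which was used. Whether counting used strand is not given in the sources used here, and the labels give no batch.

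The 15320 genes that reached 10 counts in 3 or more sheep were normalised by TMM and tested with edgeR 4.0.16 (quasi-likelihood test, R 4.3.3) with breed as the only term, Benjamini-Hochberg adjustment, and calls at an adjusted p under 0.05 with more than 1.5-fold change. RPKM values were scaled per sheep by the median TMM-normalised CPM per RPKM of counted genes, and the 16220 genes that reached an RPKM of 0.1 in 3 or more sheep were tested with limma 3.58.1 with a trend on log2(scaled RPKM + 0.1). Reads behind the RPKM of the mitochondrial genes were recovered through the RPKM of genes with a single exon, and 100% of the values came out whole within 0.02. The scripts were tested on simulated data.

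Genes named were all mitochondrial and complex II genes, in each other complex the 3 nuclear genes with the smallest p and the 2 with the highest level, the ATP5G and NDUFA4 paralogs, and in each list the gene with the smallest p in each direction. Other genes were named after their values were seen. Members and lists were chosen with earlier results of these data known. Gene names are those of the files. Not every member is reported by name here. The p values measure the spread between 3 animals per breed, and the smallest p of an exact permutation test would be 0.1. Counting floors cover counting error only. Alternatives were other tests (DESeq2 1.42.0, likelihood ratio), normalizations, filters, pseudocounts, removal of the trend on exon length (loess, span 0.5) and fits without 1 sheep each. The newer quasi-likelihood dispersion, limma-voom and the tests on recovered reads were added after seeing the data.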

Additional observations from a re-analysis of the deposited data

How the results depend on the processing

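The alternatives gave 883 values for 58 of the genes named here, which include list genes but not all 73 members. Of these values, 855 kept their direction and their side of the threshold. Another 24 kept their direction and came to pass it (16 genes), and 4 changed sign (3 genes). Members outside the 58 genes changed sign too. With the trend on exon length removed, 47 of the 60 nuclear members were higher in SM sheep, against 54 in the main fit. Over the sheep left out that number lay between 51 and 54. With the trend on exon length removed, the log2 fold changes of NDUFA4, NDUFA6 and UQCRH were -0.12, -0.045 and -0.045, and without SM sheep 30126 that of NDUFA4 was -0.0031, the lowest over the sheep left out, of which the highest was 0.20. The number of nuclear members called was 0 in every setting except without SM sheep 128 (4), so that it ranged from 0 to 4 over the sheep left out, and their median log2 fold change ranged from 0.14 to 0.42. The number of mitochondrial genes called ranged from 0 to 5 over the sheep left out, the 5 being without 128, and it was 2 by the likelihood ratio test and 3 by DESeq2 on recovered reads, with a median between -1.10 and -0.68 over the sheep left out. The breed difference of the log2 ratio of mitochondrial to nuclear sums was negative in every alternative, between -1.15 and -0.61 over the sheep left out and -1.12 without the 2 most abundant mitochondrial genes. The cause of these differences was not tested, and each fit without 1 sheep leaves 2 in a breed. No paired analysis was possible because the sheep labels name individual animals, and no SM sheep is tied to an STH sheep. ATP8, with 18 to 162 reads, is the mitochondrial gene whose depth limits it most.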
